A study of Mus musculus with 2 samples.

Results

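The platelet-derived growth factors are read here through 6 genes of the mouse coronal suture, the fibrous joint between the frontal and parietal bones. They are the 4 ligand genes *Pdgfa*, *Pdgfb*, *Pdgfc* and *Pdgfd* and the 2 receptor genes *Pdgfra* and *Pdgfrb*. They were chosen by symbol, and all 6 were found under the same identifier in the gene lists of both libraries, of 27514 genes with the same identifier in both. The libraries are single-cell RNA libraries of wild-type C57/BL6 embryos, made with the 10x Genomics Chromium 3′ v2 reagents, and 1 deposited matrix per age is called a library here. The E15.5 library came from 10 pooled coronal sutures, digested for 45 min with collagenase II and dispase, after which a kit took out dead cells. The E17.5 library came from 16 sutures of 2 litters, digested for 30 min with collagenase IV in 3 batches and sorted by FACS. The batches were sorted separately and joined in the matrix, whose barcodes carry 3 suffixes that are not assigned to the batches. Embryonic age, enzyme, dead cell removal, sequencing site, gene list and embryos all differ between these libraries, so that their parts cannot be told apart.

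PDGF ligands are secreted as dimers and signal through receptor tyrosine kinases. PDGF-A and PDGF-C act on PDGFRα, PDGF-D acts mainly on PDGFRβ, and PDGF-B binds both receptors. In the head, PDGFRα is known for its part in the neural crest and in craniofacial closure. In blood vessels, PDGF-B released by endothelial cells recruits pericytes and smooth muscle cells that carry PDGFRβ.

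Levels are UMIs (unique molecular identifiers) of the gene over all UMIs of the summed cells, as counts per 1000000 (CPM). They were taken over 15 clusters that the authors assigned to osteogenic and mesenchymal cells. OG1 to OG4 are osteogenic, with mature osteoblasts in OG4, PO1 and PO2 are proliferating osteogenic, EC1 to EC4 are ectocranial layers above the bone, MG1 to MG4 are meningeal layers below it, and LIG is ligament-like. The osteoblast markers of OG4 were read first. A list of 6 osteoblast markers summed to 47380 CPM in OG4 against 45.4 to 619.2 CPM elsewhere at E15.5, and to 17450 CPM against 161 to 643 CPM at E17.5. The paper used *Sp7*, *Ifitm5* and *Dmp1* of this list to identify osteogenic clusters, so the sums are not a separate check of the label. At E15.5 OG4 also had the highest sum of 7 mast cell markers, 391 CPM against 45.4 to 165 CPM elsewhere. The labelled cells number 5335 with 48607817 UMIs at E15.5 and 6830 with 92585034 UMIs at E17.5, in clusters of 28 to 1185 and of 76 to 1010 cells. The median depth was 8510 and 12302 UMIs per cell, and 190 barcodes occurred in both libraries. Because the clusters were drawn from the same cells, and no replicate exists for E15.5, the levels are descriptions without p-values. Intervals are exact 95% Poisson, binomial or ratio intervals and cover counting error only.

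**Figure D1:**
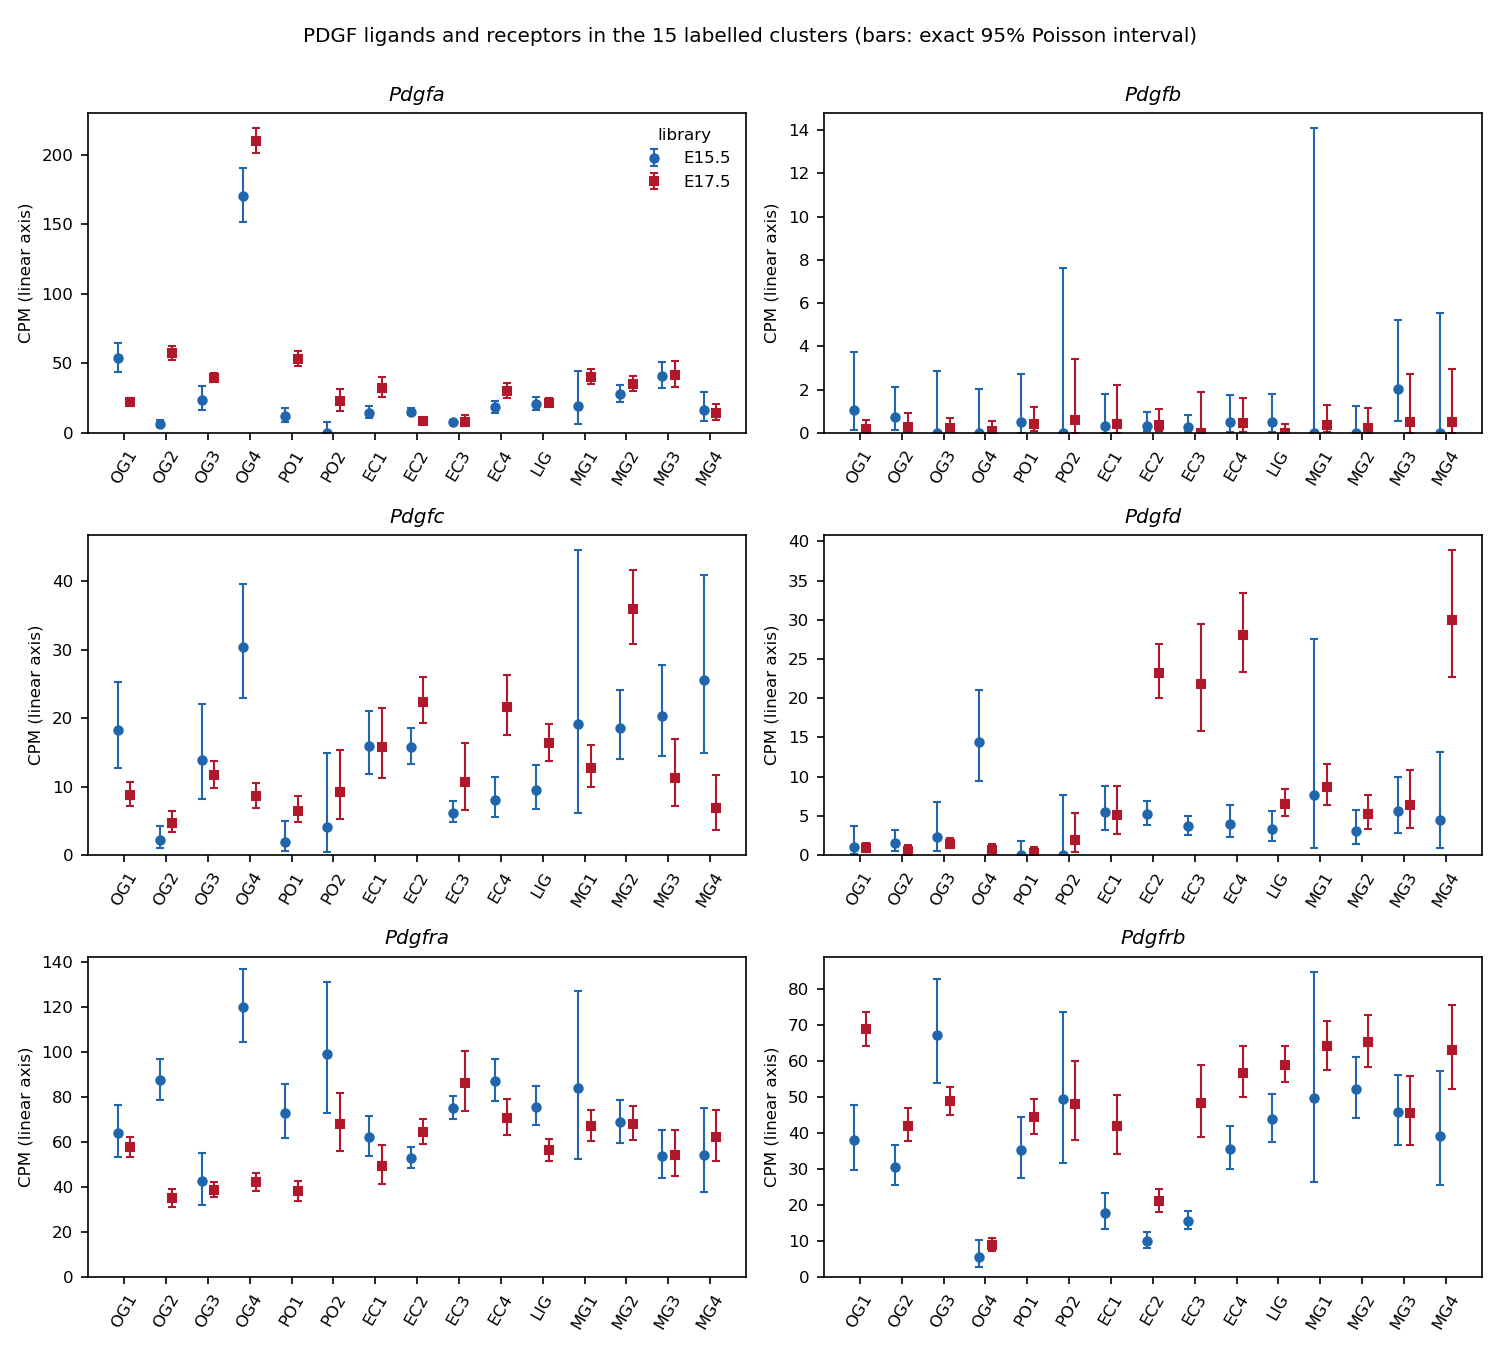
Level of each PDGF gene in the 15 labelled clusters, in CPM on linear axes that differ between panels, with E15.5 as blue circles and E17.5 as red squares. Bars are exact 95% Poisson intervals. *Pdgfa* stood at 170 and 210 CPM in OG4, *Pdgfrb* was lowest there, *Pdgfd* at E17.5 was highest in MG4, EC4, EC2 and EC3, and *Pdgfb* rested on 21 and 23 UMIs in all clusters together.

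*Pdgfa*, which encodes the A chain, was the ligand with the clearest cluster, and that cluster was OG4. *Pdgfa* (ENSMUSG00000025856, chromosome 5, 138976014 to 138997370, minus strand, GRCm38) had 170 CPM in OG4 at E15.5 (interval 152 to 190, 308 UMIs in 190 cells) and 210.0 CPM at E17.5 (interval 201 to 219, 2204 UMIs in 527 cells). These levels were 10.1-fold (8.82 to 11.5) and 6.48-fold (6.12 to 6.86) above all other labelled cells of the same library. OG4 was the one cluster whose interval did not meet that of the next cluster in the order, in either library. In the 3 suffixes of E17.5 the OG4 level was 261, 199 and 201 CPM, so each suffix placed it above every other cluster of the pooled library. After every cell was thinned to 3000 UMIs, 38.1% of OG4 cells had a *Pdgfa* UMI at E15.5 and 46.7% at E17.5. In the macrophages and monocytes-like group the same share was 4.92% at E15.5 (median depth 9600 UMIs) and 1.28% at E17.5 (8809 UMIs), and the mast, osteoclast and endothelial cells-like groups of E15.5 had 1.03%, 5.88% and 6.06%. Median depth of OG4 at E15.5 was 7352 UMIs.

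Outside OG4 the order of *Pdgfa* differed between the libraries. Many of these levels lay in the range of the blood cell groups outside the labels, 4.19 to 23.2 CPM at E15.5 and 7.51 to 25.7 CPM at E17.5, and are not read as expression. At E15.5 the next clusters were OG1 at 53.6 CPM, MG3 at 40.7 CPM and MG2 at 28.0 CPM, and the lowest were EC3 at 7.74 CPM, OG2 at 6.09 CPM and PO2 with 0 UMIs, which allows up to 6.20 CPM at 3 UMIs. At E17.5 OG2 came second at 57.2 CPM and PO1 next at 53.1 CPM, OG1 had 22.2 CPM, and EC2 and EC3 were lowest at 8.30 and 8.12 CPM. Below OG4 every pair of neighbours in the order had overlapping intervals in both libraries. From E15.5 to E17.5 the level in OG2 was 9.39-fold higher (6.28 to 14.7) and in PO1 4.34-fold higher (2.89 to 6.79). In PO2 it was 3.69-fold higher with 3 UMIs in place of the 0 at E15.5, and the interval of the ratio began at 2.85. It was lower in OG1 (0.415-fold, 0.330 to 0.527) and in EC2 (0.550-fold, 0.404 to 0.743). Of the levels behind these folds, only OG2 and PO1 at E17.5 and OG1 at E15.5 lay above the blood cell ranges. The others lay in or below them, so the sizes of these folds are read with that limit. The E15.5 cells of OG2, PO1 and PO2 also held *Stmn2*, a neuronal microtubule gene, at 668, 384 and 399 CPM, while its highest level in any cluster at E17.5 was 24.7 CPM. The other 6 neuron markers were at most 6.20 CPM in these E15.5 clusters, and whether *Stmn2*, which was chosen after its values were seen, and the *Pdgfa* levels are linked was not tested.

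The *Pdgfa* level of OG1 at E15.5 rested on a small group of its cells. OG1 had the highest sums of 6 keratinocyte markers (430.6 CPM, against 2.01 to 36.3 CPM in the other clusters) and of 6 skeletal muscle markers (570 CPM, against 3.87 to 79.8 CPM) in that library. Its 52 cells with 2 or more UMIs of these markers had 216 CPM of *Pdgfa* (169 to 272) and held 71 of the 103 *Pdgfa* UMIs of the cluster. The remaining 209 cells had 20.1 CPM (13.7 to 28.3), which is 0.943-fold the other labelled cells (0.641 to 1.34), where the whole cluster was 2.52-fold above them. The 52 cells had 3.04 CPM of *Pdgfra* (1 UMI) and 6.08 CPM of *Pdgfrb* (2 UMIs), against 76.5 and 44.5 CPM in the remaining cells. At E17.5 only 6 of 1010 OG1 cells had such marker UMIs. In OG4 the level without marked cells was 170 CPM at E15.5 and 210.3 CPM at E17.5, as in the whole cluster.

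**Figure D2:**
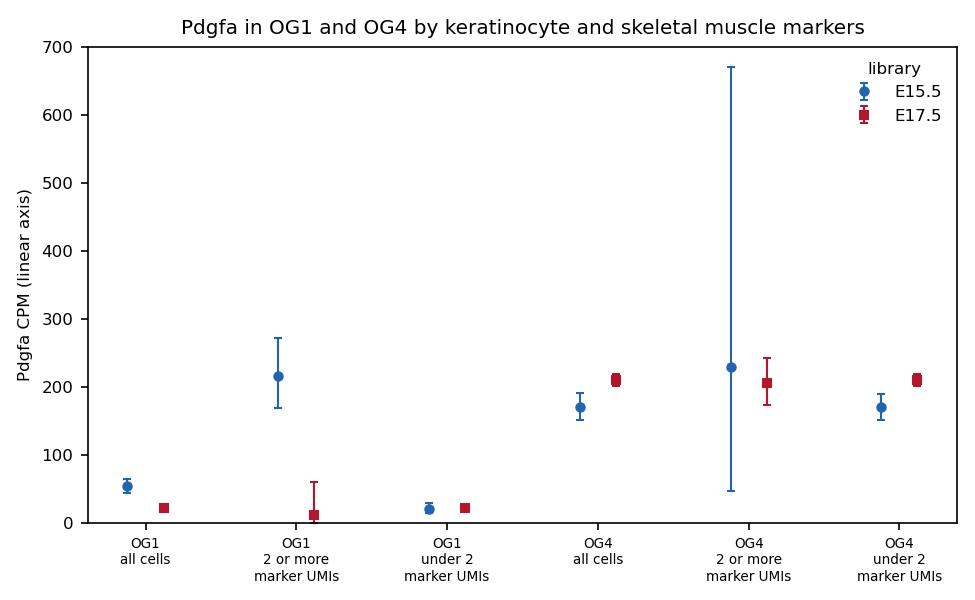
*Pdgfa* level in CPM (linear axis) in OG1 and OG4, for all cells, for cells with 2 or more UMIs of keratinocyte or skeletal muscle markers and for the remaining cells, with E15.5 as blue circles, E17.5 as red squares and exact 95% Poisson intervals as bars. In OG1 at E15.5 the 52 marked cells stood at 216 CPM and the other 209 at 20.1 CPM, whereas OG4 kept its level without such cells; the marked OG4 group of E15.5 is 2 cells.

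The upstream sequence of *Pdgfa* is shown because this member and 2 genes of the related lists, the protease gene *Pcsk6* and the co-receptor gene *Cspg4*, were at least 2-fold higher in OG4 in both libraries. PACE4, the product of *Pcsk6*, is a proprotein convertase of the kind that cleaves PDGF-A and PDGF-B precursors, and *Cspg4* encodes NG2, a proteoglycan that binds PDGF-AA. *Pcsk6* had 268 CPM in OG4 at E15.5, 21.4-fold the other labelled cells, and 98.9 CPM at E17.5, 7.29-fold. *Cspg4* had 42.5 and 55.4 CPM, which were 2.54-fold and 3.23-fold. The 250 bases upstream of the RefSeq starts (GRCm38.p6) are printed 5′ to 3′ on the strand of the gene, with the GC box letters GGGCGG, or CCGCCC on the other strand, in capitals. They lie at chr5:138994282-138994531 and chr5:138994945-138995194 (minus strand, both starts of *Pdgfa*), chr7:65861886-65862135 (plus strand, *Pcsk6*) and chr9:56864854-56865103 (plus strand, *Cspg4*).
*Pdgfa* start 1: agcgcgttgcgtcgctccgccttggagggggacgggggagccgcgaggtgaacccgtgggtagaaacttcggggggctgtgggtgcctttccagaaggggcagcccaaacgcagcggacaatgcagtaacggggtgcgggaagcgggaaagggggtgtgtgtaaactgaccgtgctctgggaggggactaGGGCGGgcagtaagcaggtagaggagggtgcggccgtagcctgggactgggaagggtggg
*Pdgfa* start 2: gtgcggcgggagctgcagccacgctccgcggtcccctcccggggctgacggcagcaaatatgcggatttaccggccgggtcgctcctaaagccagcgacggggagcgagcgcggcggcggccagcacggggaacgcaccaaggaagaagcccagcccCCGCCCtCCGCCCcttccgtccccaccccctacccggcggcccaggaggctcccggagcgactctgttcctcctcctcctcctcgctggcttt
*Pcsk6*: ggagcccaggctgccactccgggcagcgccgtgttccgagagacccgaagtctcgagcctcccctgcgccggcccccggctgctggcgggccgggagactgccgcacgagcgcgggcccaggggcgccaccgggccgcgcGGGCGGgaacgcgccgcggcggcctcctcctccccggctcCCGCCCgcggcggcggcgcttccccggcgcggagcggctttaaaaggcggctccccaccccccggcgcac
*Cspg4*: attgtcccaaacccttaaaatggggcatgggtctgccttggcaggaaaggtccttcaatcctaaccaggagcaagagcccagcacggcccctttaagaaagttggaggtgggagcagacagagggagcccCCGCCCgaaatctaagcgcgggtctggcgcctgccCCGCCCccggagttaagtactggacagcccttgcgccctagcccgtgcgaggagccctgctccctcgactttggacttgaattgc
The GC box was found once in the window of the *Pdgfa* start 1 and at 2 places in each of the others. Of 32851 RefSeq windows of this length, 32.7% held it on either strand, and the G and C share was 66.4%, 72.4%, 81.2% and 60.4% here against a median of 52.4%. The letters CCAAT (33.8% of all windows), TATAAA (12.4%) and TGTGGT, a core of RUNX sites (14%), were in none of these 4 windows on either strand. In the windows of *Pdgfc*, *Pdgfd* and *Pdgfra* the GC box, CCAAT and TGTGGT were not found either, and TATAAA occurred only once, in that of *Pdgfd*. A match is a description of the letters and not a bound site.

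*Pdgfb*, the vascular ligand, was close to undetected in the labelled cells and was found in cells outside the labels. *Pdgfb* (ENSMUSG00000000489, chromosome 15, 79995874 to 80014977, minus strand, GRCm38) had 21 UMIs over all labelled E15.5 cells and 23 over those of E17.5, or 0.432 and 0.248 CPM. Its highest labelled values were 2.04 CPM in MG3 at E15.5 (4 UMIs) and 0.618 CPM in PO2 at E17.5 (1 UMI), so no order of clusters can be read at this depth. Cells without a label were clustered in each library without the 6 PDGF genes and named from marker lists. In the endothelial cells-like group *Pdgfb* had 33.6 CPM at E15.5 (19.9 to 53.2, 18 UMIs in 46 cells) and 30.2 CPM at E17.5 (22.2 to 40.1, 47 UMIs in 119 cells). That is 77.9-fold (39.1 to 153) and 121-fold (72.3 to 210) above all labelled cells of the library.

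*Pdgfb* was also found in myeloid cells and, on few UMIs, in glia-like and mural-like cells. The osteoclasts-like group, the cells that resorb bone, had 20.5 CPM at E15.5 (15.9 to 26.0, 68 UMIs in 188 cells) and 19.3 CPM at E17.5 (14.3 to 25.3, 51 UMIs in 142 cells). The macrophages and monocytes-like group had 10.4 CPM (7.01 to 14.8) and 3.64 CPM (2.08 to 5.91). The glia-like cells of E17.5 had 14.9 CPM (4.84 to 34.8, 5 UMIs), and cells of vessel walls, called mural-like, had 3.1 and 4.91 CPM (7 and 11 UMIs). Osteoclasts-like cells overlapped endothelial cells-like ones in both libraries, and their intervals lay above that of the macrophages and monocytes-like group in both. At E15.5 the fold of the macrophages and monocytes-like group over the labelled cells was 24.1, and it ranged from 9.39 to 30.4 over the alternatives tried. The mast cells-like group had 0.466 CPM at E15.5 from 1 UMI (0.0118 to 2.59), below the other blood cells named here. Of 8 endothelial markers, none was at 0 in the endothelial cells-like groups, where they summed to 3777 and 5807 CPM, against 8.26 to 117 and 15.7 to 137 CPM in labelled clusters. The groups were named from these markers, so the sums are not separate support for the name.

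**Figure D3:**
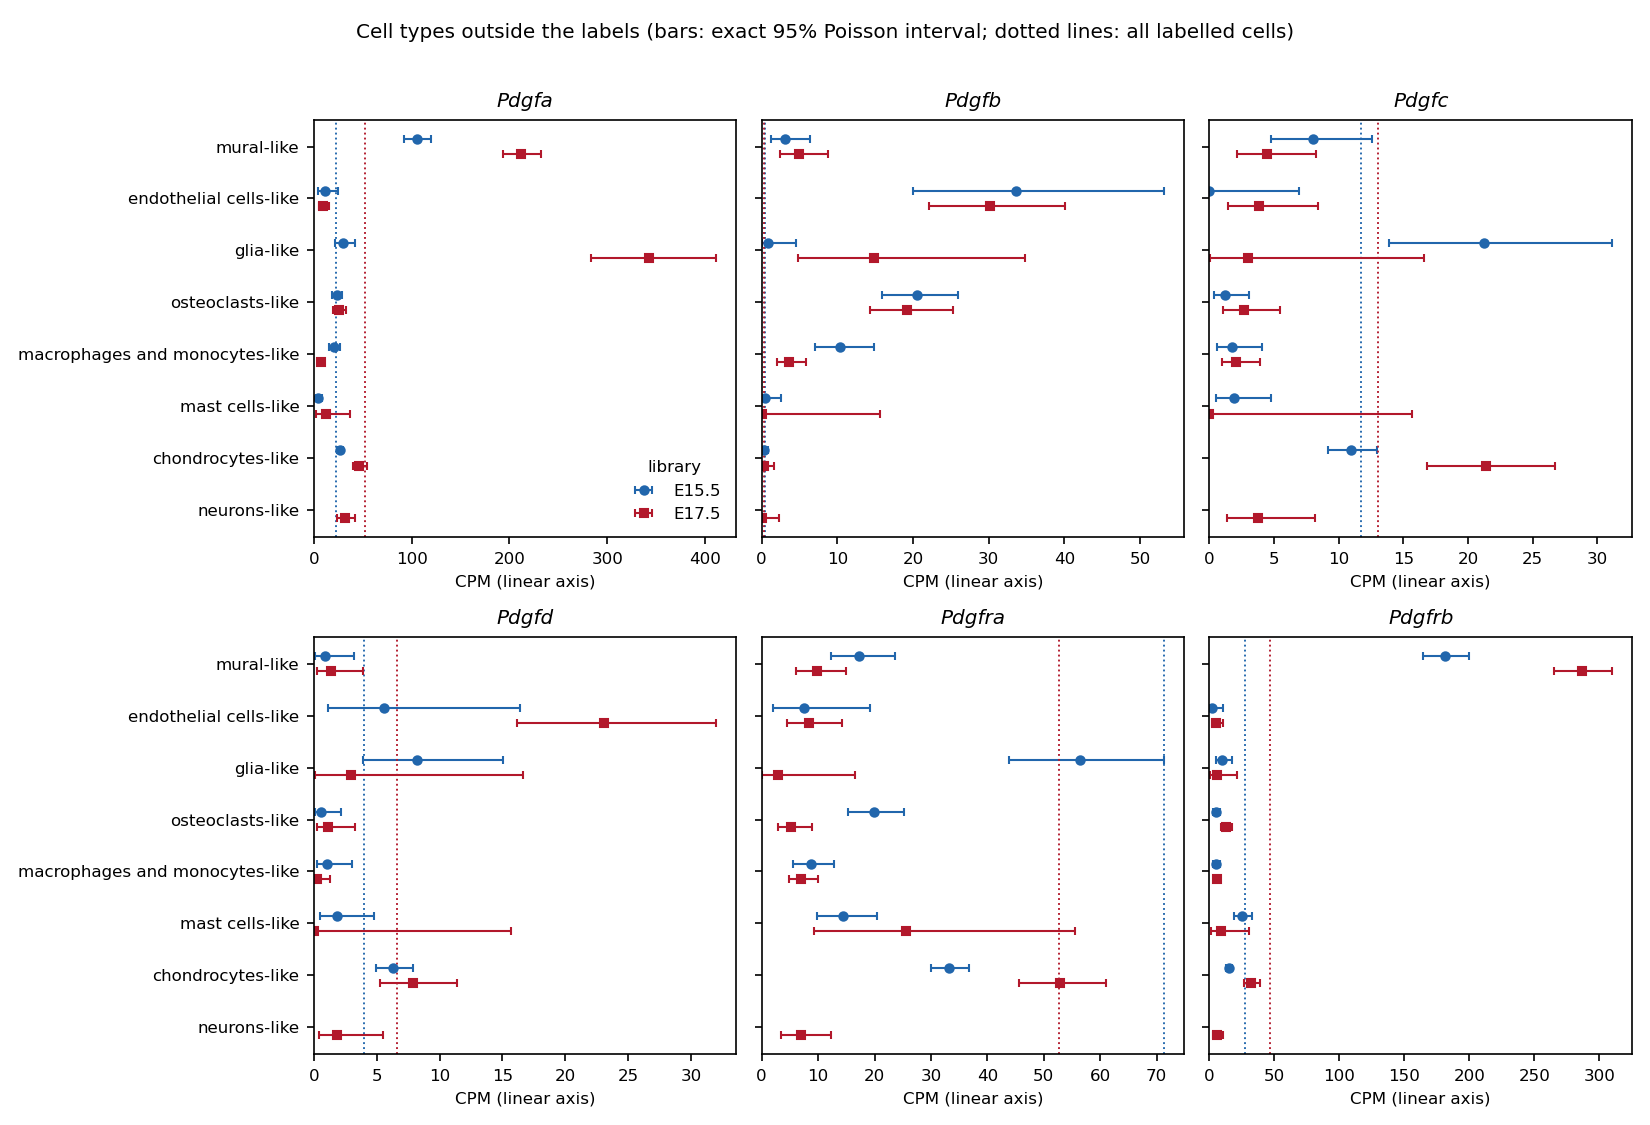
Levels of the PDGF genes in cell types outside the labels, in CPM on linear axes that differ between panels, with E15.5 as blue circles, E17.5 as red squares, exact 95% Poisson intervals as bars and all labelled cells of each library as dotted lines. *Pdgfb* was highest in endothelial cells-like and osteoclasts-like groups, *Pdgfrb* at 181 and 287 CPM in mural-like cells, and *Pdgfa* at 343 CPM in 32 glia-like cells of E17.5.

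*Pdgfc*, whose product is secreted latent and needs a protease to remove its CUB domain, had a flatter pattern that changed between the libraries. *Pdgfc* (ENSMUSG00000028019, chromosome 3, 81036416 to 81214040, plus strand, GRCm38) had 571 labelled UMIs at E15.5 and 1210 at E17.5. At E15.5 its highest cluster was OG4 at 30.4 CPM (22.9 to 39.6), followed by MG4 at 25.6 CPM and MG3 at 20.4 CPM, and it was lowest in OG2 at 2.19 CPM and PO1 at 1.96 CPM. Every pair of neighbours in this order overlapped. At E17.5 it was highest in MG2, a periosteal dura layer, at 36.0 CPM (30.8 to 41.7), 3.04-fold above the other labelled cells and apart from the next clusters, EC2 at 22.4 CPM and EC4 at 21.6 CPM. The 3 suffixes gave 38.1, 32.7 and 37.2 CPM in MG2. OG4 was then at 8.57 CPM, 0.282-fold its E15.5 level (0.200 to 0.402), MG4 at 6.84 CPM (0.268-fold, 0.120 to 0.585), and EC4 was 2.68-fold higher than at E15.5 (1.79 to 4.11). Intervals of the ratio lay above 1 in 7 clusters and below 1 in 4. OG2 and PO1 were among the lowest 3 clusters in both libraries.

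*Pdgfd* encodes the other latent ligand with a CUB domain, and its level at E17.5 set the ectocranial clusters EC2, EC3 and EC4 and the arachnoid cluster MG4 apart from bone. *Pdgfd* (ENSMUSG00000032006, chromosome 9, 6168584 to 6378850, plus strand, GRCm38) had 195 labelled UMIs at E15.5, with OG4 highest at 14.4 CPM (9.39 to 21.1, 26 UMIs) and no other cluster above 7.63 CPM. At E17.5 it had 614 UMIs, and MG4 at 30.0 CPM (22.7 to 38.9), EC4 at 28.0 CPM, EC2 at 23.3 CPM and EC3 at 21.8 CPM (15.8 to 29.4) were 3.46-fold to 5.06-fold above the other labelled cells. The interval of EC3 did not meet that of the next cluster, MG1 at 8.72 CPM. The ectocranial cluster EC1 was at 5.14 CPM (13 UMIs), against 5.53 CPM at E15.5. All 4 OG clusters were at most 1.40 CPM, and PO1 had 0.275 CPM from 2 UMIs. OG4 was at 0.667 CPM from 7 UMIs, 0.0464-fold its E15.5 level (0.0170 to 0.110). The blood cell groups of E17.5 ran from 0 UMIs in mast cells-like to 1.13 CPM in osteoclasts-like cells. The size of the OG4 fold is read with that limit. EC4 was 7.18-fold (4.25 to 12.9), MG4 6.65-fold (2.16 to 33.2), EC3 6.0-fold (3.80 to 9.51) and EC2 4.46-fold higher (3.24 to 6.27).

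The suffixes of E17.5 were compared for *Pdgfd*. EC2 had 13.1 CPM (8.82 to 18.7), 26.0 CPM (20.2 to 32.8) and 28.7 CPM (22.9 to 35.5) in suffixes 1, 2 and 3, so that suffix 1 lay below the others by its interval. EC3 had 5.88, 22.1 and 29.6 CPM, with 2 UMIs in suffix 1 and intervals that all overlapped. MG4 had 0 UMIs in the 7 cells of suffix 1, whose interval reaches 47.6 CPM, and 26.8 and 36.0 CPM in the others. EC4 had 23.3, 22.6 and 39.0 CPM. Outside the labels, endothelial cells-like groups had 5.61 CPM of *Pdgfd* at E15.5 (3 UMIs) and 23.1 CPM at E17.5 (16.2 to 32.0, 36 UMIs), 3.49-fold above the labelled cells of E17.5.

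*Pdgfra*, the receptor of the A and C chains, was spread over every labelled cluster. *Pdgfra* (ENSMUSG00000029231, chromosome 5, 75152292 to 75198215, plus strand, GRCm38) had 3462 labelled UMIs at E15.5 and 4872 at E17.5. Its highest and lowest clusters differed 2.82-fold in the E15.5 and 2.47-fold in the E17.5 library, and all neighbours in the order overlapped in both libraries. At E15.5 OG4 was highest at 120 CPM (104 to 137) and OG3, the preosteoblasts, lowest at 42.5 CPM (32.0 to 55.3). At E17.5 the ectocranial cluster EC3 was highest at 86.3 CPM (73.8 to 100.3), and the lowest were OG3 at 38.9, PO1 at 38.1 and OG2 at 34.9 CPM. Over the 15 clusters, Pearson's r of the 2 libraries was 0.0423, which leaves little shared order. OG4 was at 42.2 CPM at E17.5, 0.352-fold its E15.5 level (0.298 to 0.416), with 53.0, 36.8 and 43.2 CPM in the 3 suffixes. OG2 was at 0.399-fold (0.340 to 0.468) and PO1 at 0.522-fold (0.426 to 0.642). Of the 15 clusters, 6 had an interval below 1, and EC2 alone had one above 1 (1.22-fold, 1.08 to 1.38).

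*Pdgfra* was lower in vessel and blood cells than in the labelled cells, except for the few mast cells of E17.5, whose interval reached the labelled level. At 3000 UMIs per cell, 19.8% of labelled cells had a *Pdgfra* UMI at E15.5 and 15% at E17.5. In the macrophages and monocytes-like group, a blood lineage, these shares were 0.758% and 1.5%, at median depths of 9600 and 8809 UMIs. Osteoclasts-like cells had 6.95% and 1.41%, and mast cells-like cells 4.14% and 12.1%, the last in 33 cells (25.5 CPM, 9.36 to 55.5). Endothelial cells-like groups had 7.48 and 8.35 CPM of *Pdgfra* and mural-like cells 17.3 and 9.83 CPM, against 71.2 and 52.6 CPM in all labelled cells. Chondrocytes-like cells had 33.3 CPM at E15.5 and 52.9 CPM at E17.5.

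*Pdgfrb*, the receptor of the B and D chains, had the pattern that the libraries shared most. *Pdgfrb* (ENSMUSG00000024620, chromosome 18, 61045150 to 61085061, plus strand, GRCm38) had 1313 (E15.5) and 4332 (E17.5) labelled UMIs, and Pearson's r between the libraries over 15 clusters was 0.849. OG4 was lowest in both, at 5.53 CPM (2.65 to 10.2, 10 UMIs) and 8.96 CPM (7.24 to 11, 94 UMIs), and EC2 was next at 10.1 and 21.0 CPM. At E17.5 OG4, EC2 and the cluster after them, EC1 at 41.9 CPM, were separated by their intervals. OG3 was highest at E15.5 with 67.2 CPM (53.9 to 83.0), and OG1 at E17.5 with 68.9 CPM (64.3 to 73.8). MG2 was second in both, at 52.2 and 65.3 CPM. The 3 suffixes gave 6.34, 8.91 and 10.0 CPM in OG4 and 58.1, 66.4 and 73.7 CPM in OG1, without overlap between the clusters. Intervals of the E17.5 to E15.5 ratio lay above 1 in 9 of 15 clusters, with the highest values in EC3 (3.08-fold, 2.37 to 3.98), EC1 (2.34-fold, 1.68 to 3.31) and EC2 (2.08-fold, 1.60 to 2.71), and OG3 was lower (0.727-fold, 0.580 to 0.921). The E15.5 levels of EC3, EC1 and EC2 were 15.7, 17.9 and 10.1 CPM. They lay within the blood cell groups of that library, 4.82 to 25.2 CPM, so the sizes of these EC folds are read with that limit.

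Mural cells, the pericytes and smooth muscle cells of vessel walls, had more *Pdgfrb* than any labelled cluster. The group called mural-like is the vascular smooth muscle-like cluster of E15.5 (191 cells) and the pericytes-like cluster of E17.5 (171 cells), joined under that name after the data were seen. *Pdgfrb* had 181 CPM there at E15.5 (164 to 200, 410 UMIs) and 287 CPM at E17.5 (265 to 310, 642 UMIs), 6.72-fold (6.0 to 7.51) and 6.13-fold (5.63 to 6.66) above the labelled cells. At 3000 UMIs per cell, 36.9% and 54.4% of these cells had a *Pdgfrb* UMI, against 1.89% and 1.07% in the macrophages and monocytes-like group. The same cells held *Pdgfa* at 105 CPM (92.4 to 120) and 212 CPM (194 to 232), 4.67-fold and 4.04-fold above the labelled cells. At E17.5 this interval overlapped that of OG4, and at E15.5 it lay below it. Lists of 7 pericyte and 6 smooth muscle markers summed to 1678 and 2875 CPM at E15.5 and to 5024 and 3569 CPM at E17.5 in mural-like cells, with no marker at 0. The clusters were named from these lists, so the sums are not separate support for the names.

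The balance of the receptors is the number of *Pdgfra* UMIs for each *Pdgfrb* UMI of the same cells. It was compared only between clusters, since capture may differ between the genes. OG4 had the highest ratio of all clusters, at 21.7 (11.6 to 45.9) at E15.5 and 4.71 (3.77 to 5.95) at E17.5. Its *Pdgfrb* was 5.53 and 8.96 CPM (10 and 94 UMIs). Osteoclasts-like cells had 4.82 and 12.5 CPM, macrophages and monocytes-like cells 4.85 and 5.46 CPM, and mast cells-like cells 25.2 and 8.50 CPM. The size of the OG4 ratio is therefore read with the limit that its denominator lay near blood cell levels. EC2 followed at 5.24 (4.19 to 6.61) and 3.07 (2.58 to 3.68), and EC3 was next at 4.80 and 1.79. OG4 was apart from EC2 by its interval in both libraries. OG3 had the lowest ratio in both, at 0.632 (0.443 to 0.896) and 0.795 (0.706 to 0.896), but its interval overlapped those of MG1, MG3 and MG4 at E15.5 and of OG1, OG2, PO1, LIG, MG2 and MG4 at E17.5. In LIG it was 1.73 (1.43 to 2.09) at E15.5, and in MG3, part of the dura, 1.18 (0.881 to 1.58).

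**Figure D4:**
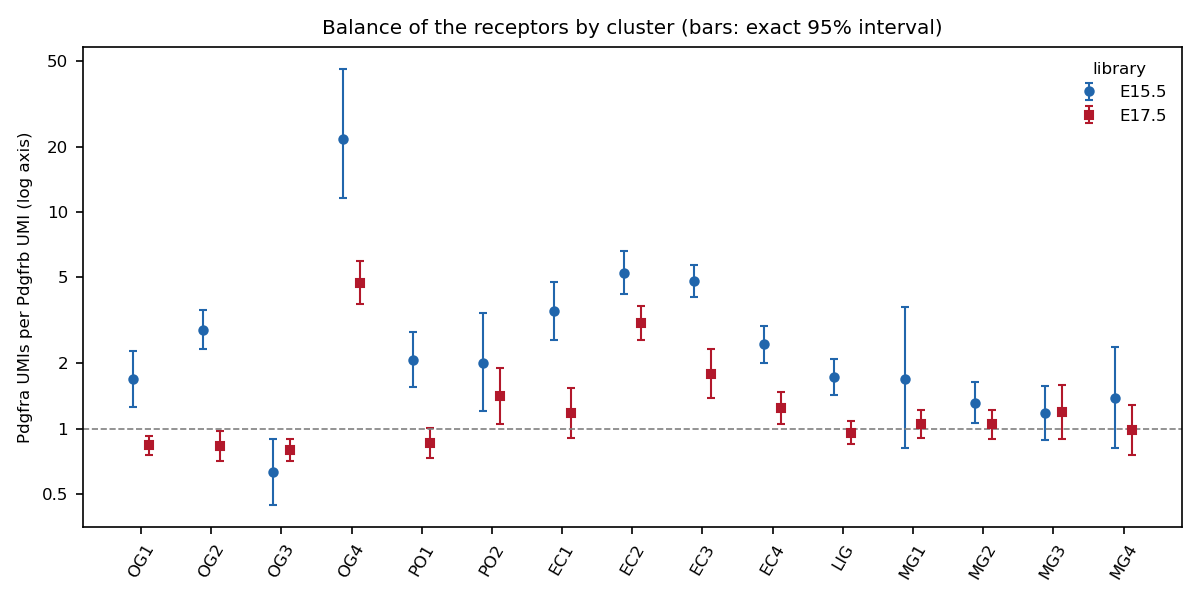
*Pdgfra* UMIs for each *Pdgfrb* UMI in the 15 labelled clusters, on a log axis, with E15.5 as blue circles, E17.5 as red squares, exact 95% intervals as bars and a dashed line at 1. OG4 was highest in both libraries (21.7 and 4.71) and OG3 lowest (0.632 and 0.795).

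Glia-like cells, which carry markers of nerve-ensheathing cells, held the highest *Pdgfa* level of any named group at E17.5. The 32 cells had 343 CPM (283 to 412, 115 UMIs), and 28 of them had a *Pdgfa* UMI. The 6 glia markers, from which the group was named, summed to 1655 CPM in them, with none at 0. At E15.5 the 83 cells named glia-like had 30.2 CPM (21.3 to 41.7), but their glia markers summed to only 88.2 CPM. With a finer clustering (Leiden resolution 2 in place of 1) they parted into 13 glia-like cells, with a marker sum of 1054 CPM, and 70 cells of a skeletal muscle-like cluster. The muscle markers of that cluster (71 cells) summed to only 130 CPM, against 570 CPM in OG1 of the same library. Mesenchyme markers summed to 16050 CPM in the 83 cells, so the muscle name is weak. The 13 cells had 261 CPM of *Pdgfa* (167 to 388, 24 UMIs), in 12 of the 13, and the skeletal muscle-like cluster had 11.2 CPM (5.94 to 19.1). *Pdgfra* and *Pdgfrb* had at most 2 UMIs each in these 13 and 32 glia-like cells.

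The family was then read against all genes. A gene was called enriched when a cluster was at least 2-fold above the other labelled cells in both libraries. Among 12150 genes with 50 or more labelled UMIs in each library, 2512 (20.7%) had such a cluster. Of the 5 PDGF genes tested, 1 did, *Pdgfa* in OG4, and *Pdgfb* was too low to be tested. A share of 1 in 5 members is close to the background of 20.7%.

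For the ages, the mean over the 15 clusters was compared, with a call at 1.5-fold or more in the same direction in the pooled E17.5 library and in each suffix. Suffix 1 holds no MG1 cells, so its ratio is over 14 clusters. Of all genes tested, 907 (7.47%) were called higher and 1410 (11.6%) lower at E17.5, and the median ratio was 1.01. None of the 5 PDGF genes tested was called in either direction. With a counting interval approximated on the log scale, the ratio was 1.43 (1.31 to 1.55) for *Pdgfa*, 0.967 (0.837 to 1.12) for *Pdgfc*, 2.29 (1.77 to 2.95) for *Pdgfd*, 0.781 (0.732 to 0.833) for *Pdgfra* and 1.35 (1.24 to 1.48) for *Pdgfrb*. *Pdgfd* missed the call through suffix 1, which gave 1.39 against 2.08 and 2.77 in the others. In suffix 1 that mean takes MG4, 7 cells with 0 UMIs and an interval to 47.6 CPM, as a cluster at 0. The part of MG4 in the miss was not tested. Counted as UMIs per cell, without division by depth, *Pdgfra* turned to 1.08-fold higher and *Pdgfa* to 2.46-fold.

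Ligand and receptor were seldom seen in the same cell, at shares near the product of their single shares. At 3000 UMIs per cell, both *Pdgfa* and *Pdgfra* had a UMI in 0.889% of labelled cells at E15.5 (0.652 to 1.18), where the product of the single shares is 1.16%, and in 1.32% at E17.5 (1.06 to 1.62), where it is 1.60%. In OG4 the pair was found in 12 of 176 cells at E15.5 (6.82%, 3.57 to 11.6), against a product of 10.4%, and in 30 of 527 at E17.5 (5.69%, 3.87 to 8.03), against 4.61%. The product lay inside the interval in each of these 4 shares. At E15.5 both receptors had a UMI in 1.47% of labelled cells (1.16 to 1.83), and at E17.5 in 2.21% (1.88 to 2.59), with products of 1.41% and 2.02% inside the intervals. In OG4 no cell of the 176 at E15.5 had a *Pdgfrb* UMI at this depth, so the receptor pair cannot be read there, and 1 of 527 had both at E17.5. Differences between cell types within the pooled clusters enter these shares, and their part was not tested.

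LIG cells were split by *Acta2*, the smooth muscle actin gene that part of this cluster expresses. At E17.5 the 310 LIG cells with 2 or more *Acta2* UMIs had 0.760-fold the *Pdgfrb* of the 220 cells with 0 (0.622 to 0.931), at 52.8 against 69.4 CPM. *Pdgfra* was 0.735-fold (0.598 to 0.907) and *Pdgfd* 0.427-fold (0.220 to 0.828), on 20 and 21 UMIs. *Pdgfa* and *Pdgfc* had intervals that held 1. Without suffix 3 the *Pdgfd* ratio was 0.710. The split is by raw UMIs and so also parts cells by depth: the 310 cells held 5079548 UMIs and the 220 cells 2276985. The part of depth in these ratios was not tested. At E15.5, with 29 cells against 400, all intervals held 1, and that of *Pdgfrb* ran from 0.373 to 1.42.

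The genes with the pattern most like a member over the 15 clusters were ranked by the smaller of the Pearson's r in the 2 libraries, among 9863 genes with 200 or more UMIs in each. Clusters share their library and differ in depth, so r is a description. For *Pdgfrb* they were *Auts2* (0.892), *Clmp* (0.875) and *Ssbp2* (0.841), and for *Pdgfa* *Ccdc97* (0.824), *Srpr* (0.795) and *Lrrc16a* (0.782). For *Pdgfc* they were *Cthrc1* (0.758), *Ccpg1* (0.681) and *Chpf* (0.661), and for *Pdgfra* *Creb3l2* (0.619), *Fam160b2* (0.609) and *Fbxo32* (0.604). *Pdgfb* and *Pdgfd* were under 200 UMIs in a library. Among the members, *Pdgfa* and *Pdgfra* had r of -0.106 (E15.5) and -0.670 (E17.5), and *Pdgfa* and *Pdgfc* had 0.683 and -0.263.

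The lists around the family were read in the same way, gene by gene. Of 6 tested proteases that can process PDGF precursors, 3 had an enriched cluster, against the background of 20.7%: *Pcsk6* in OG4, *Pcsk5* in MG2 at 70.8 and 82.4 CPM, and *Plat* in EC2 at 111 and 185 CPM. *Plat* encodes tissue plasminogen activator, which cleaves PDGF-C, and its fold in EC2 was 2.78 and 16.2. Of 10 tested genes of ligand binding, co-receptors and receptor partners, 4 did, namely *Cspg4* in OG4, the scavenger receptor gene *Lrp1* in MG3 (289 and 218 CPM), the scaffold gene *Slc9a3r1* in EC3 (17.9 and 14.2 CPM) and the integrin gene *Itgb3* in EC2 (19.9 and 35.2 CPM). Of 23 tested genes of receptor signalling only 2 did, *Mapk3*, which encodes the kinase ERK1, in MG4 and the adaptor gene *Nck2* in MG2 and MG3. Of 11 negative regulators 1 did, the phosphatase gene *Ptprk* in MG2 and MG3, and of 12 early response genes known from PDGF-stimulated fibroblasts 1, the hyaluronan synthase gene *Has2* in EC2.

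Relatives of the PDGFs were also placed. Of 4 tested genes of other class III receptor tyrosine kinases and their ligands, 1 was enriched, *Kitl*, the ligand of KIT, in EC3 at 171 CPM at E15.5 and 38.6 CPM at E17.5. Of 6 tested VEGF genes, 2 were, *Pgf* in EC4, MG2, MG3 (104 and 75.5 CPM) and MG4, and the PGF receptor gene *Flt1* in EC2 (10.6 and 6.04 CPM). Between the ages, 6 of the 12 early response genes were called lower at E17.5, against 11.6% of all genes, and 1 higher, against 7.47%. The genes called lower were *Ier3* (0.256-fold), *Has2* (0.256-fold), *Arid5b* (0.341-fold), *Tiparp* (0.364-fold), *Klf4* (0.392-fold) and *Sgk1* (0.542-fold), and the gene called higher was *Plaur* (3.18-fold), the urokinase receptor. Such genes also respond to dissociation, and the enzymes and times differed between the libraries, so age and handling cannot be told apart here. In the other lists *Kitl* (0.113-fold), *Crkl* (0.118-fold), *Flt1* (0.405-fold), *Pgf* (0.503-fold) and *Ptprk* (0.540-fold) were called lower and *Csf1r* (2.73-fold), a macrophage receptor gene, higher. The sum of 8 macrophage and monocyte markers, *Csf1r* among them, moved with it, from 14.5 to 55.1 CPM in the labelled clusters of E15.5 to 94.5 to 170 CPM at E17.5, and its part in the call was not tested.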

How the data were processed

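Coronal suture cells of wild-type mouse embryos were captured with 10x Genomics 3′ v2 reagents, and 1 deposited matrix per age (E15.5 and E17.5), called a library, was analysed. The values deposited by the authors are UMI counts per gene and barcode, before the study's limits on cells. Reads were aligned to mm10 and counted per sample with Cell Ranger, whose version the study's methods and the E15.5 matrix header (3.1.0) give differently. The 3 E17.5 suffixes were aggregated with default settings, which in Cell Ranger bring libraries to equal depth, and the matrix does not record the setting. Their table of cluster names, made with Seurat 3.2.0, lists 5340 E15.5 cells (5 of them without a matrix barcode) and 6830 E17.5 cells. The UMI totals in that table equal the matrix in all 6830 E17.5 cells, and all 5335 E15.5 cells have fewer in the matrix (median 8510 against 11513).

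UMIs were summed per cluster and library and divided by the total, as CPM. Unlabelled cells with at least 1000 UMIs and 1000 genes, at most 7.5% mitochondrial and 3% Hbb and Hba UMIs (2875 and 1937 cells) were clustered without the PDGF genes (Leiden, 2000 variable genes, 30 components, 30 neighbours, resolution 1). A name needs 3 markers at 2-fold or more, and a cluster stayed unnamed where its 10 leading genes held more markers of another list than of its own (among them clusters with all 8 macrophage or all 7 chondrocyte markers) or where its median depth was more than 3-fold below the library's and no own marker led it. Shares of cells were taken after thinning to 3000 UMIs per cell, which left 5175 labelled E15.5 and 6830 E17.5 cells. No p-value was computed, because no replicate exists for E15.5 and the suffixes could not be assigned to batches or litters, and limits of 0 use 3 counts. Doublets were treated only in an alternative without the cells whose Scrublet score reached the 94th percentile (501 and 558 cells). The tools were scanpy 1.11.5, igraph 0.11.9, scipy 1.17.1 and numpy 2.4.6 under Python 3.11.15, with figures from matplotlib 3.10.9, and the computations were tested on simulated data. Genes named are the members, the 3 genes most like each member with 200 or more UMIs, and the called genes of the pathway lists. Alternatives were other cell filters, normalizations, fold limits, weights of clusters, UMI totals, clusterings and thinning depths, and each suffix or doublet-scored cells left out. The members and lists were chosen with earlier results of these data known. Positions are from GENCODE vM21 and sequences from RefSeq. Protein sequences were not used here.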

Additional observations from a re-analysis of the deposited data

Results flagged for a closer look

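In 5 cases a cluster was at least 1.5-fold above the other labelled cells in one library and at least 1.5-fold below them in the other, with intervals that left out 1 in both. The difference between the ages was not tested, since E15.5 has no replicate. *Pdgfd* in OG4 was 3.98-fold in the E15.5 library and 0.0902-fold in the E17.5 one, a ratio of folds of 44.1. Its E17.5 level in OG4 was 0.667 CPM from 7 UMIs, among blood cell levels, and 0.0464-fold the E15.5 level. The ratio of folds also takes in the other clusters, as all labelled cells had 4.01 CPM at E15.5 and 6.63 CPM at E17.5. *Pdgfa* in OG1 was 2.52-fold and 0.390-fold (ratio 6.45), and without the 52 E15.5 cells that carry keratinocyte or skeletal muscle markers the E15.5 fold was 0.943. *Pdgfc* was 2.76-fold and 0.628-fold in OG4 (ratio 4.39), 2.21-fold and 0.519-fold in MG4 (ratio 4.27), and 1.58-fold and 0.641-fold in OG1 (ratio 2.47). For *Pdgfc* in OG1 the same 52 cells mattered, and the fold at E15.5 without them was 0.929.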

How the results depend on the processing

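*Pdgfa* kept OG4 as its 1 enriched cluster under all 12 alternatives, and *Pdgfd* and *Pdgfrb* kept none. With a limit of 1.5-fold *Pdgfc* gained 1 cluster, MG2, and with mean UMIs per cell in place of CPM *Pdgfra* gained 1, PO2. The E17.5 to E15.5 ratio of the mean over clusters moved most with mean UMIs per cell, to 2.46 for *Pdgfa* (1.43 with CPM), 1.32 for *Pdgfc* (0.967), 1.85 for *Pdgfrb* (1.35) and, in the other direction from 0.781, 1.08 for *Pdgfra*. That scale does not divide by depth, and depth is higher at E17.5. With all labelled cells pooled, so that clusters weigh by their UMIs, it was 2.33 for *Pdgfa*, 1.65 for *Pdgfd* (2.29 with equal weights) and 1.73 for *Pdgfrb*. Among single folds whose counting interval left out 1, 3 turned around. In OG1 at E15.5, leaving out cells with 2 or more keratinocyte or skeletal muscle marker UMIs, an alternative chosen after seeing the data, took *Pdgfa* from 2.52 to 0.943 and *Pdgfc* from 1.58 to 0.929. *Pdgfc* in glia-like cells of E15.5 went from 1.81 to 0.0 at Leiden resolution 2, where the group is 13 cells. Of the other results, 320 values stayed inside their counting interval and 49 left it. Some of these crossed 1, from folds whose interval held 1. In chondrocytes-like cells of E17.5 *Pdgfa* reached 1.41 (0.889 in the main setting) and *Pdgfd* 0.747 (1.19 in the main setting). The cause of these changes was not tested beyond their construction. No paired analysis was possible because E15.5 has no replicate. There, 28 cells set the depth of MG1, and with 21 and 23 labelled UMIs *Pdgfb* gives no order of clusters.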

Other observations

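Mast cells-like cells of E15.5 (348 cells) had 25.2 CPM of *Pdgfrb* (18.9 to 32.8, 54 UMIs), close to the 27.0 CPM of all labelled cells, while their *Pdgfa* was 4.19 CPM and their *Pdgfra* 14.4 CPM. The other blood cell groups of that library had 4.82 and 4.85 CPM of *Pdgfrb*. At E17.5 the 33 mast cells-like cells had 2 *Pdgfrb* UMIs.

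The 97 neurons-like cells of E17.5 had 31.9 CPM of *Pdgfa* (23.8 to 42.0) and at most 6.89 CPM of either receptor. The *Pdgfa* interval began below the 25.7 CPM of osteoclasts-like cells of that library. The cells were named from a list that includes *Neurod1*, *Otx2* and *Crx*, and *Neurod1* was among their 10 leading genes. The name does not say which kind of neuron they are.

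In the 52 E15.5 cells of OG1 with keratinocyte or skeletal muscle markers, *Pdgfc* was also high, at 54.7 CPM (32.4 to 86.5, 18 UMIs), against 10.7 CPM (6.21 to 17.1) in the other 209 cells of the cluster.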
